A study of Mus musculus with 5 samples.

Results

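Chemically induced neural progenitor cells (ciNPC) are made from mouse fibroblasts with small molecules under hypoxia. They were set here against neural progenitor cells derived from mouse brain (NPC, the control) to see what still separated the converted cells from the control progenitors. The comparison used 4 of the 5 single-colour expression arrays of the series: 1 ciNPC array from passage 5 (p5), 2 from passage 13 (p13-1 and p13-2) and 1 NPC array. The remaining array held mouse embryonic fibroblasts (MEF), and it served as a reference level. The labels name no transgene and no sort, and total RNA labelled with Cy3 was hybridised. They give neither the strain nor the age of the animals, and they do not say whether the ciNPC arrays came from separate conversions. The p-values therefore reflect the spread among these arrays alone, and that spread could be technical. MEF and NPC lay on one slide with one scan number, and the 3 ciNPC arrays on another with another scan number. Cell type and slide cannot be told apart in any difference below. The lone NPC array was assumed to vary like the ciNPC arrays.

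Neural progenitors are dividing cells that keep the Sox, Pax and basic helix-loop-helix factors of the early neural tube, the intermediate filament nestin and a soft matrix of proteoglycans. Fibroblasts build the opposite environment: they secrete fibrillar collagens, crosslink them with lysyl oxidases, pull on them with smooth muscle actin bundles and hold a regional identity through Hox genes. A full conversion would start the neural genes and stop the fibroblast genes.

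All levels below are log2 signals relative to the 75th percentile of the same array, so 0 is a probe at that percentile, and a difference of 1 is 2-fold. Defining markers were checked against the labels. The progenitor factor Sox2 stood at 1.80, 2.11 and 2.10 on the ciNPC arrays in the order p5, p13-1 and p13-2, at 2.70 on NPC, and was not well above background on MEF. The fibroblast factor Twist2 stood at 2.63 on MEF and was not well above background on NPC. Between 47.9% and 57.6% of spots were well above background on an array. The p13-2 array stood apart in 2 respects: the slope of its spike-in controls, 0.803, lay outside the range accepted by the scanner software, against 0.915 to 0.987 on the other arrays, and its dim end was raised. For 17373 probes under background everywhere, the median level was -4.68 on p13-2, -5.45 on p13-1, -5.76 on p5, -6.51 on NPC and -6.43 on MEF. For a gene under background in NPC the fold is therefore given as a lower bound, against the lowest signal well above background on the NPC array, -4.35, or the gene's own NPC signal where that was higher. For 54 of the genes called higher below, not above background on all 3 ciNPC arrays, dim ciNPC signals were taken as they stood. There the bound is not strict. Precision is limited by how few arrays there are.

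The genes called different between ciNPC and NPC ran almost entirely one way. Of 16210 genes tested, 779 (4.81%) were higher in ciNPC at a limma adjusted p under 0.05 and at least 2-fold, and 14 (0.0864%) were lower. With dim genes at their bound, 514 of the 779 were at least 4-fold, 148 at least 16-fold and 38 at least 64-fold higher. A gene under background on NPC entered the test only through MEF or ciNPC, so none of the 1920 such genes could be called lower. By fold alone, with dim signals as they stood, 1819 genes were at least 2-fold above NPC on p5 and 996 at least 2-fold below. The counts were 1925 and 581 on p13-1, and 2763 and 336 on p13-2. These counts were less one-sided than the calls. Of the 779 higher genes, 431 (55.3%) were well above background on all 4 arrays, so both sides of the difference were measured, and 347 were bounds. For 8987 genes (55.4%) the 95% interval of the difference lay wholly within 2-fold in both directions. The median difference over all genes was -0.14, and -0.00 when the percentile was taken over probes above background on every array, so small differences below carry that shift of scaling. With 1 ciNPC array left out the count of higher genes ranged from 895 to 1030. In bulk RNA, fewer cells of a type and less RNA per cell cannot be told apart.

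**Figure D1:**
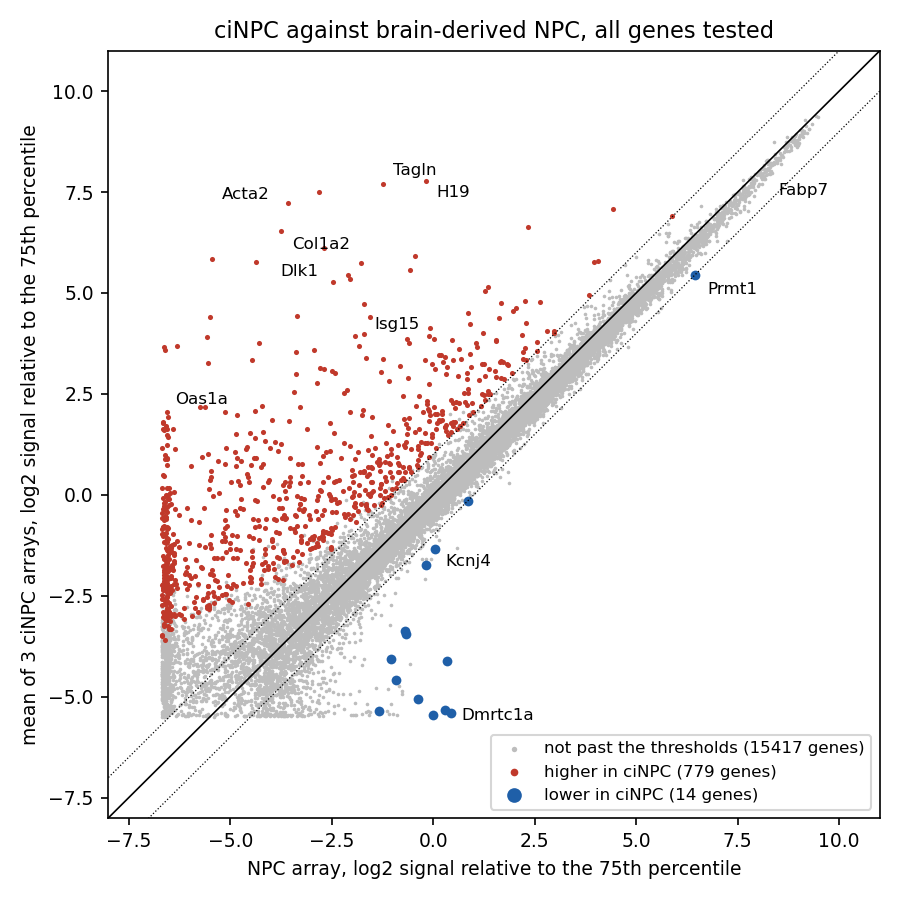
Mean level of the 3 ciNPC arrays (vertical axis) against the level on the NPC array (horizontal axis), both as log2 signal relative to the 75th percentile of the array, with 1 point for each of 16210 genes. The solid line marks equal levels and the dotted lines 2-fold, red points are the 779 genes higher in ciNPC and blue points the 14 lower, and the red points spread far above the line while few blue points lie below it.

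The genes with the largest differences included contractile and matrix genes of fibroblasts. Smooth muscle actin Acta2 (probe on chromosome 19, 34316060 to 34316119, mm9, the build of the array files) stood at 7.45, 7.11 and 7.11 on the ciNPC arrays and was under background on NPC at -3.57, at least 1778-fold higher (limma adjusted p 9.88e-07). The 3 ciNPC values lay within 0.5 log2 units of each other and more than 10 units above NPC. S100a6, which encodes a small calcium sensor (chromosome 3, 90418160 to 90418219), stood at 7.76, 7.40 and 7.33 against -2.82 on NPC, where it was well above background. Its difference was 10.31 (SE 0.19, 95% interval 9.87 to 10.76, adjusted p 1.25e-06).

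The 20 genes with the highest fitted difference, a rank that takes NPC signals under background as they stand and so does not order the folds, also held the activin subunit gene Inhba, the latent TGF-beta binding protein gene Ltbp2, the focal adhesion gene Tes, the leucine-rich repeat gene Lrrc17 and Ankrd1, a nuclear ankyrin protein of stretched muscle. Inhba stood at 4.14, 3.47 and 3.39 on the ciNPC arrays and was under background on NPC, at least 260-fold higher. Tes was at least 66.5-fold, Lrrc17 at least 78.1-fold and Ankrd1 at least 62.4-fold higher. The 20 genes were picked with every ciNPC array at least 2-fold above NPC, so a lack of overlap with NPC was set by that choice. In each of the genes named in this paragraph so far, the MEF level was the highest of the 5 arrays. Of the 20, Oas1a, an interferon-induced gene described below, stood above MEF on all 3 ciNPC arrays.

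**Figure D2:**
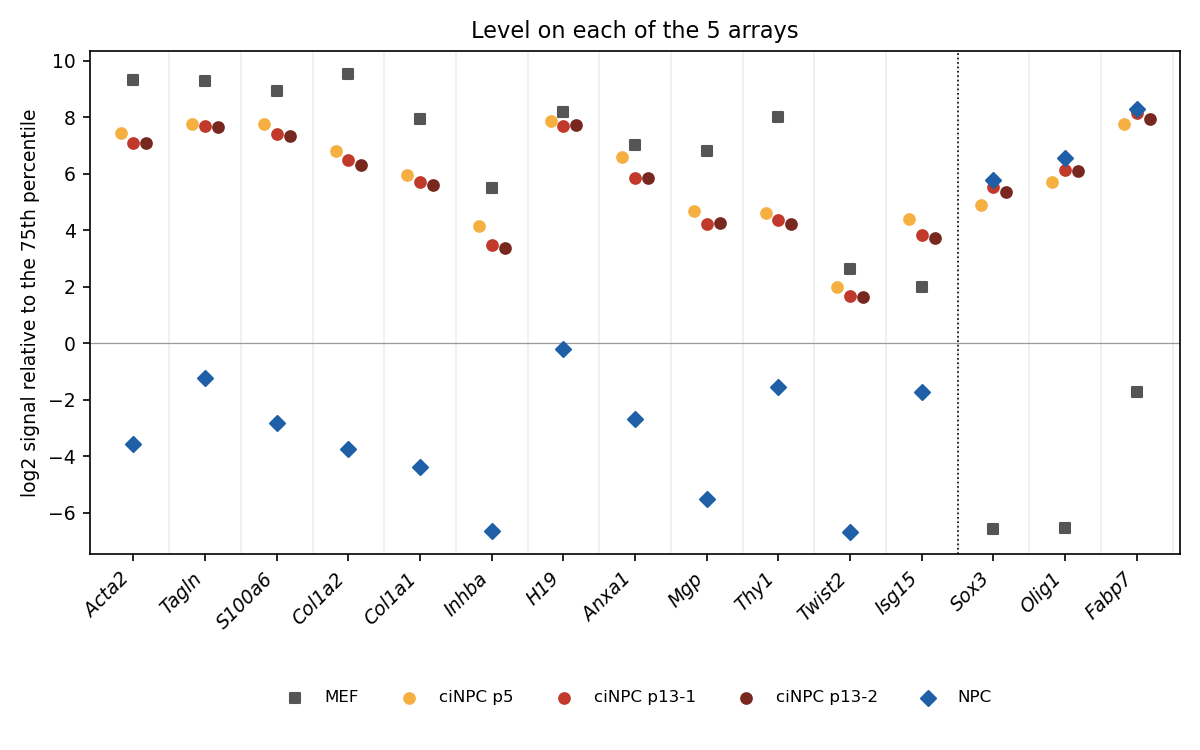
Level of 15 genes on each of the 5 arrays, as log2 signal relative to the 75th percentile (vertical axis); squares are MEF, circles the ciNPC arrays p5, p13-1 and p13-2, and diamonds NPC. Left of the dotted line, Acta2 stands at 7.45, 7.11 and 7.11 in ciNPC against -3.57 in NPC, and Isg15 is the gene drawn there whose ciNPC circles lie above MEF; right of it, the 3 progenitor genes lie close to NPC and far from MEF.

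Collagens give fibroblast matrix its tensile strength. Of 31 collagen chain genes tested, 16 were higher in ciNPC and none was lower, with a median difference of 1.96 against -0.14 over all genes tested. Of the 31, 10 were under background on NPC and could not have been called lower. The same limit holds for such members of every list below. The chains of type I collagen, the main collagen of connective tissue, led the list. Col1a1 (chromosome 11, 94813115 to 94813174) stood at 5.95, 5.72 and 5.60 on the ciNPC arrays, at 7.95 on MEF and under background on NPC, at least 1103-fold higher than NPC (adjusted p 9.88e-07). Col1a2 (chromosome 6, 4490619 to 4490678), its partner chain, stood at 6.82, 6.48 and 6.33 against -3.74 on NPC, where it was measured, a difference of 10.29 (SE 0.20, adjusted p 1.25e-06). Col3a1, the chain of type III collagen, which copolymerises with type I, lay further below MEF. It stood at 3.63, 2.83 and 2.76 against 7.78 on MEF and -2.50 on NPC, a difference from NPC of 5.57 (SE 0.33).

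Other matrix chains varied more. Col6a1, of the beaded microfibrils around cells, was higher by 5.45 (SE 0.23), and Col8a1 of vessel walls at least 20.5-fold higher. The cartilage collagen Col2a1 stood at 3.65, 3.20 and 3.18 on the ciNPC arrays and under background on NPC, at least 207-fold higher. It was the only called collagen gene whose ciNPC mean exceeded the MEF level, which was 2.82. Col5a2, which nucleates type I fibrils, differed by 1.00 (SE 0.20, adjusted p 0.0424) and missed the 2-fold limit. It passed without p13-1 (1.08), without p13-2 (1.03) or with the percentile over detected probes (1.13). Col9a3 differed by -0.84 (95% interval -2.64 to 0.97), and was above background on 2 of the 3 ciNPC arrays.

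Collagen is modified inside the cell and is cut and crosslinked outside it. Of 21 processing and crosslinking genes, 9 were higher and none lower. The lysyl oxidases, which crosslink collagen and elastin outside the cell, gave 5 of the 9: Lox stood at 1.95, 1.67 and 1.79 on the ciNPC arrays and was under background on NPC, at least 71.3-fold higher. Loxl1 was higher by 5.62 (SE 0.24), Loxl2 by 3.06 (SE 0.29) and Loxl4 at least 4.09-fold. Loxl2 lost its call when the fit did not let the spread vary with signal, that is without the intensity trend (adjusted p 0.0611), and Loxl4 with normexp background correction (0.169). The procollagen peptidase gene Adamts2 was at least 33.8-fold higher on its brighter probe, but its 2 probes gave 5.22 and 0.07. None of the prolyl 3-hydroxylase or lysyl hydroxylase genes in the list was called. The collagen chaperone gene Serpinh1 differed by 0.96 (95% interval 0.54 to 1.38), under 2-fold, though it passed without p13-1 (1.03) or p13-2 (1.00). The procollagen C-proteinase gene Bmp1 differed by -0.43 (95% interval -1.0 to 0.13) and was not called.

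Elastic fibres, proteoglycans and matricellular proteins completed the matrix. In the elastic fibre list 8 of 16 were higher, with Ltbp2 at 3.81, 3.55 and 3.39 on the ciNPC arrays and at least 244-fold higher than NPC. The fibulin gene Fbln5, whose product organises elastin, was higher by 6.53 (SE 0.21) on 1 probe and by 1.62 on the other. Mfap5 of the microfibrils was higher by 3.71 (SE 0.25), yet stood at 2.29% of its MEF level on the linear scale. Of 10 small leucine-rich proteoglycans, which bind and space collagen fibrils, 5 were higher: Ogn at least 47.8-fold, Lum at least 10.6-fold, Dcn by 3.69 (SE 0.30), Bgn by 1.56 (SE 0.24) and Podn at least 6.93-fold. Bgn lost its call without the intensity trend (adjusted p 0.154).

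Matricellular proteins, which signal to cells from the matrix, were higher in most cases. Of 20 members 14 were called, and the median was 3.16, or 2.58 with dim genes at their bound. Thrombospondin 1 (Thbs1) stood at 5.87, 5.27 and 5.21 on the ciNPC arrays against -2.10 on NPC, a difference of 7.55 (SE 0.26). The CCN genes followed it. Ccn2 stood at 6.36, 5.46 and 5.38 against -1.78, a difference of 7.52 (SE 0.36), and Ccn4 was at least 197-fold, Ccn5 at least 16.5-fold and Ccn3 at least 4.88-fold higher. Matrix Gla protein (Mgp), an inhibitor of calcification, was at least 432-fold higher and periostin (Postn) at least 55.0-fold. Members well above background on NPC that did not pass included Sparc, which stood at 8.59, 8.81 and 8.85 against 8.40, tenascin C (Tnc) differed by -0.02 (95% interval -0.53 to 0.48), versican (Vcan) by 0.29 (-0.32 to 0.91) and osteopontin (Spp1) by -0.19 (-0.83 to 0.45).

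The contractile apparatus of smooth muscle and myofibroblasts gave 13 higher members of 22 and none lower (median 2.29, or 1.79 with dim genes at their bound). Tagln, an actin-binding protein of smooth muscle, stood at 7.75, 7.71 and 7.66 on the ciNPC arrays and -1.24 on NPC, a difference of 8.95 (SE 0.12, 95% interval 8.67 to 9.23, adjusted p 9.34e-07). The 3 ciNPC values lay within 0.1 log2 units of each other. Actg2 was at least 264-fold and calponin (Cnn1) at least 305-fold higher. The regulatory light chain Myl9 stood at 6.24, 5.74 and 5.78 against -0.45, a difference of 6.37 (SE 0.21), and tropomyosin Tpm2 at 4.37, 3.72 and 3.68 against -1.92, a difference of 5.84 (SE 0.27). Members that were not called included filamin A (Flna), which differed by 0.76 (SE 0.14), Myl6 by 0.56 (SE 0.13) and Tagln2 by -0.26 (SE 0.18), all under 2-fold.

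Many smooth muscle genes carry a CArG box, the binding sequence of serum response factor, close to their start. The RefSeq promoter table (GRCm38.p6) held 18 of the 22 contractile genes, and 6 of the 18 had a CArG box in the 250 bases before the start, 4 of these among the 10 members that were higher. Among all 27025 genes of that table, 1.62% had one. The search covered both strands and required every base of the box to match. The windows of Acta1, the skeletal actin gene (chr8:123894819-123894868, minus strand), and Myl9 (chr2:156775283-156775332, plus strand), both higher in ciNPC, are shown 5′ to 3′ with the box in capitals. The box begins 73 bases before the start in Acta1 and 161 bases before it in Myl9.
Acta1: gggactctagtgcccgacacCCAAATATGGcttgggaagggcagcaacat
Myl9: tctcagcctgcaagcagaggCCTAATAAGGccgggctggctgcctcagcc
A match is a run of letters and says nothing of whether the factor was bound. Acta1 stood at 1.25, 0.61 and 0.92 on the ciNPC arrays and under background on NPC, at least 38.8-fold higher.

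Genes of the cell surface and of matrix turnover showed the same direction. Of 15 fibroblast surface markers, 11 were higher and none lower (median 2.62). Thy1, a classical fibroblast antigen, stood at 4.61, 4.37 and 4.22 on the ciNPC arrays, 8.0 on MEF and -1.55 on NPC, a difference from NPC of 5.95 (SE 0.17). The PDGF receptor Pdgfrb was at least 40.7-fold, the stem cell antigen Ly6a at least 17.9-fold and the protease Fap 31.0-fold higher. Integrins are receptors for matrix, and laminins some of their ligands. Of 27 such genes 6 were higher (22.2%, against 4.81% of all genes), led by the collagen receptor Itga11, at least 86.5-fold. Itga3 was at least 5.54-fold higher. Itga6, a laminin receptor subunit, stood at 6.04, 6.38 and 6.47 against 6.79 on NPC and 2.76 on MEF, a difference from NPC of -0.49 (95% interval -0.93 to -0.06) that was not called.

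Of 23 proteases and their inhibitors, 11 were higher and none lower. Serpinf1, which encodes the anti-angiogenic factor PEDF, stood at 3.90, 3.34 and 3.37 against -3.38 on NPC, a difference of 6.92 (SE 0.23). The inhibitor Timp1 was higher by 3.77 (SE 0.19), the membrane collagenase Mmp14 by 2.75 (SE 0.19) and the urokinase Plau at least 5.91-fold. The call for Plau was lost under quantile normalisation (adjusted p 0.0642). The membrane metalloproteinase gene Mmp15, under background on MEF, stood at 1.84, 2.36 and 2.39 against 3.02 and was not called (-0.82, 95% interval -1.43 to -0.21).

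The transcription factors of mesenchyme were mostly under background on NPC, 22 of 34 tested. These 22 could not have been called lower. Of the 34, 21 were higher, 14 of them among the dim ones, and none was lower. The median was 3.21, and 2.27 when dim genes were set to their bound. Twist2 stood at 2.01, 1.69 and 1.66 on the ciNPC arrays and was under background on NPC, at least 70.4-fold higher, and Snai1, a repressor of epithelial genes, at least 56.6-fold. Snai2 was measured on all arrays at 1.60, 0.91 and 0.96 against -4.02 on NPC, a difference of 5.18 (SE 0.30). Twist1 was at least 11.7-fold, the limb factor Tbx3 at least 21.5-fold, Foxc2 at least 17.2-fold and the urogenital factor Wt1 at least 10.3-fold higher. For all of these genes but Wt1 the MEF level was above every ciNPC array. Meox1 did not pass (3.96, 95% interval 1.92 to 6.0, adjusted p 0.0513), and its p13-2 value, -1.35, lay about 2 log2 units above the others at -3.35 and -3.47.

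Hox genes hold the position of a cell along the body axis and are silent in the forebrain. Of 35 tested, 23 were higher (median 3.56, or 1.67 with dim genes at their bound). On NPC 34 of the 35 were under background, so these could not have been called lower. All 23 were under background on NPC, so their folds are bounds. For 5 of them, above background on fewer than 3 ciNPC arrays, the bound takes dim ciNPC signals as they stood and is not strict. Hoxb9 stood at 0.72, 0.39 and 0.28 on the ciNPC arrays and was under background on NPC, at least 28.2-fold higher. Hoxc6 was at least 41.2-fold, Hoxa7 at least 26.2-fold, Hoxc9 at least 20.5-fold, Hoxc4 at least 14.9-fold and Hoxb4 at least 14.1-fold higher. Under quantile normalisation 15 members were higher, and 14 with normexp background correction as well.

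S100 proteins, annexins, galectins and caveolae mark calcium signalling and membrane traffic in mesenchymal cells. S100a6, S100a4 and S100a11 were the 3 higher members of 13 S100 genes (23.1%, against 4.81% of all genes). S100a4 stood at 4.76, 4.24 and 4.33 against -3.37 on NPC, a difference of 7.81 (SE 0.21). S100a11 lost its call without the intensity trend (adjusted p 0.17), and without p13-2, 5 members were higher. Of 13 annexins and galectins 9 were higher. Anxa1, an anti-inflammatory annexin, stood at 6.61, 5.87 and 5.86 against -2.69, a difference of 8.80 (SE 0.29). Lgals3 was higher by 5.93 (SE 0.25) and Anxa2 by 2.66 (SE 0.17), while Lgals1 stood at 7.78, 7.83 and 7.82 against 7.63 and was not called. Of 9 caveolar genes 5 were higher, and Cav1, the main coat protein, lay close to MEF. It stood at 0.41, 0.22 and 0.43 on the ciNPC arrays and 0.34 on MEF, and at least 26.1-fold above NPC.

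TGF-beta signalling was represented by its ligands, its binding proteins and its targets. Of 23 genes tested 15 were higher and none lower (median 1.80). Among ligands, Tgfb3 stood at 4.16, 3.82 and 3.80 against -0.11, a difference of 4.03 (SE 0.17), Tgfb1 was at least 6.96-fold higher and Tgfb2 differed by 1.00 (SE 0.19), just under the 2-fold limit. Tgfb2 passed under quantile normalisation (1.11) and without p13-2 (1.12). The inhibitory Smads, which the pathway induces against itself, were higher as well, Smad7 at least 21-fold and Smad6 at least 11.9-fold. Follistatin (Fst), which binds activin, stood at 3.27, 2.55 and 2.60 against -1.10 on NPC and 2.96 on MEF, a difference from NPC of 3.90 (SE 0.29). Without the intensity trend in the variance, 9 members of the list were higher.

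H19, Igf2 and Dlk1, imprinted genes of fetal growth, were higher in ciNPC. The non-coding RNA gene H19 (chromosome 7, 149761492 to 149761551) stood at 7.89, 7.71 and 7.73 on the ciNPC arrays, 8.18 on MEF and -0.18 on NPC, a difference from NPC of 7.95 (SE 0.13, adjusted p 9.88e-07). Its 7 probes gave 0.48 to 8.17. Igf2, the growth factor gene next to it, was at least 58.3-fold higher than NPC, and the Notch-like ligand gene Dlk1 stood at 5.61, 5.08 and 5.08 against -2.47 on NPC and 4.58 on MEF, a difference from NPC of 7.73 (SE 0.23). Of 14 genes of the IGF axis only H19, Igf2 and Igfbp6 (5.38, SE 0.16) were higher, a share of 21.4% against 4.81% of all genes. Igfbp2, the main IGF binding protein of neural tissue, differed by -0.64 (95% interval -1.33 to 0.06).

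Interferon-stimulated genes were higher than NPC and often stood above MEF too. Of 31 tested, 21 were higher than NPC and none lower, though 10 were under background on NPC and could not have been called lower. The median was 3.40, and 2.02 when dim genes were set to their bound. Isg15, a ubiquitin-like modifier (chromosome 4, 155573649 to 155573708), stood at 4.41, 3.84 and 3.74 on the ciNPC arrays, 2.01 on MEF and -1.71 on NPC, a difference from NPC of 5.71 (SE 0.26, adjusted p 3.84e-05). The 2 probes of Isg15 gave 5.71 and 6.41. Oas1a, a sensor of double-stranded RNA (chromosome 5, 121346735 to 121346794), stood at 2.35, 1.89 and 1.91 on the ciNPC arrays, -1.33 on MEF and under background on NPC, at least 84.6-fold higher than NPC. Usp18, which removes ISG15, was at least 30.8-fold, Oasl2 at least 33.7-fold, Xaf1 at least 23-fold (its other probe gave 1.13), Ifit3 at least 10.4-fold and Ifit1 at least 5.98-fold higher. Under quantile normalisation Ifit1 lost its call (adjusted p 0.0610).

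Interferon-stimulated genes are known for a response element made of GAAA, any pair of bases and GAAA, or its reverse complement. The RefSeq table held 25 of the interferon genes, and 11 had this core in the 250 bases before the start, 7 of them among the 18 members that were higher, against 3.46% of all 27025 genes. The AP-1 sequence TGANTCA, searched in the same windows on both strands, was in 7 of the 25 and in 7.82% of all genes. The windows of 4 members named above are shown 5′ to 3′ with the core in capitals, from chr19:34640765-34640833 (Ifit1, plus strand), chr19:34583353-34583436 (Ifit3, plus strand), chr4:156200855-156200916 (Isg15, minus strand) and chr5:120907526-120907565 (Oas1a, minus strand). Overlapping cores are joined in the capitals, so Isg15 holds 3 matches and the others hold 2 each.
Ifit1: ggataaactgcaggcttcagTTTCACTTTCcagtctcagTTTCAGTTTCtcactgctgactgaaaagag
Ifit3: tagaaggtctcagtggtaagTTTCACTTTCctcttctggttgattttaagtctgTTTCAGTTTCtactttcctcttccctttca
Isg15: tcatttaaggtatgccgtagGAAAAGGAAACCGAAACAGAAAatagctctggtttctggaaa
Oas1a: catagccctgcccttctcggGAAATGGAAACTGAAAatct
These letters describe the sequence, and binding there was not measured.

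Antigen presentation is another part of the interferon response. Of 17 MHC class I genes 2 were higher, a share of 11.8% against 4.81% of all genes. The immunoproteasome subunit Psmb8 was higher by 2.64 (SE 0.34) and H2-M3 at least 3.66-fold, and both lost the call under quantile normalisation. The light chain B2m stood at 4.83, 4.29 and 4.31 against 3.73 and was not called (0.75, SE 0.22). Among 24 chemokines and cytokines 13 were higher and none lower, though 13 of the 24 were under background on NPC and could not have been called lower. Without the intensity trend 8 were higher. Cxcl12, which guides blood and neural precursors, stood at 4.06, 3.60 and 3.59 on the ciNPC arrays and at least 262-fold above NPC. Ccl5, an interferon-responsive chemokine, stood at 1.40, 1.03 and 1.00, above MEF at -0.95, and at least 45.1-fold above NPC. Ccl7 was at least 59.3-fold and Cxcl14 at least 46.0-fold higher.

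Of 19 growth factor receptor genes 5 were higher than NPC: the oncostatin M receptor Osmr at least 62.9-fold, the collagen receptor Ddr2 by 5.82 (SE 0.29), Axl by 4.31 (SE 0.23), the cytokine receptor subunit Il6st by 1.06 (SE 0.18) and the lymphatic VEGF receptor Flt4. Flt4 stood at -0.94, -1.09 and -1.52 on the ciNPC arrays and was under background on both NPC and MEF, at least 8.99-fold above NPC. Il6st was under 2-fold without p5 (0.96) and lost its call without the intensity trend (adjusted p 0.167). Of 23 Wnt targets and antagonists, Dkk2 (at least 4.21-fold) and Dkk3 (1.67, SE 0.23) were higher, a share of 8.70% against 4.81% of all genes. Dkk2 lost its call under quantile normalisation (adjusted p 0.108) and Dkk3 without the intensity trend (0.128). Fzd7, a Wnt receptor, differed by 1.56 (adjusted p 0.0747), and the list held 4 higher members without p13-2, but 1 under quantile normalisation, with normexp or in the submitters' value table.

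The level of these genes in ciNPC was set against MEF on the linear scale. For 769 of the 779 genes, those above background in MEF, the ciNPC mean as a share of MEF had a median of 24.6%. The 10th percentile was 7.94%, the 25th 13.8%, the 75th 49.5% and the 90th 103%. By distance from NPC the median was 25.9% for the 188 genes between 2-fold and 4-fold above NPC, 25% for 306 genes between 4-fold and 16-fold, 22.8% for 187 genes between 16-fold and 64-fold and 24% for the 88 genes beyond. By array the median was 29.3% on p5, 21.4% on p13-1 and 22.7% on p13-2.

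Gene groups differed around that median. The called collagen genes stood at a median of 10.9% of MEF, from 3.83% (Col3a1) to 144% (Col2a1), and crosslinking genes at 10.9%, from 4.32% (Adamts2) to 18.1% (Lox). Fibroblast surface markers stood at 17.2%, contractile genes at 15.2%, Hox genes at 19.8% and mesenchymal factors at 20.9%. Annexins and galectins stood at 42.3% and caveolar genes 42.6%. Interferon genes stood at 191% of the MEF level, and 14 of the 21 exceeded it, against 83 of 769 (10.8%) of all higher genes. Usp18 stood at 899%, Ifit1 at 445%, Isg15 at 395% and Oasl2 at 372%. No member of the crosslinking, matricellular, protease, TGF-beta or Hox lists that was higher than NPC exceeded its MEF level. These percentages are descriptions without a test, and the MEF array lay on the slide of NPC.

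**Figure D3:**
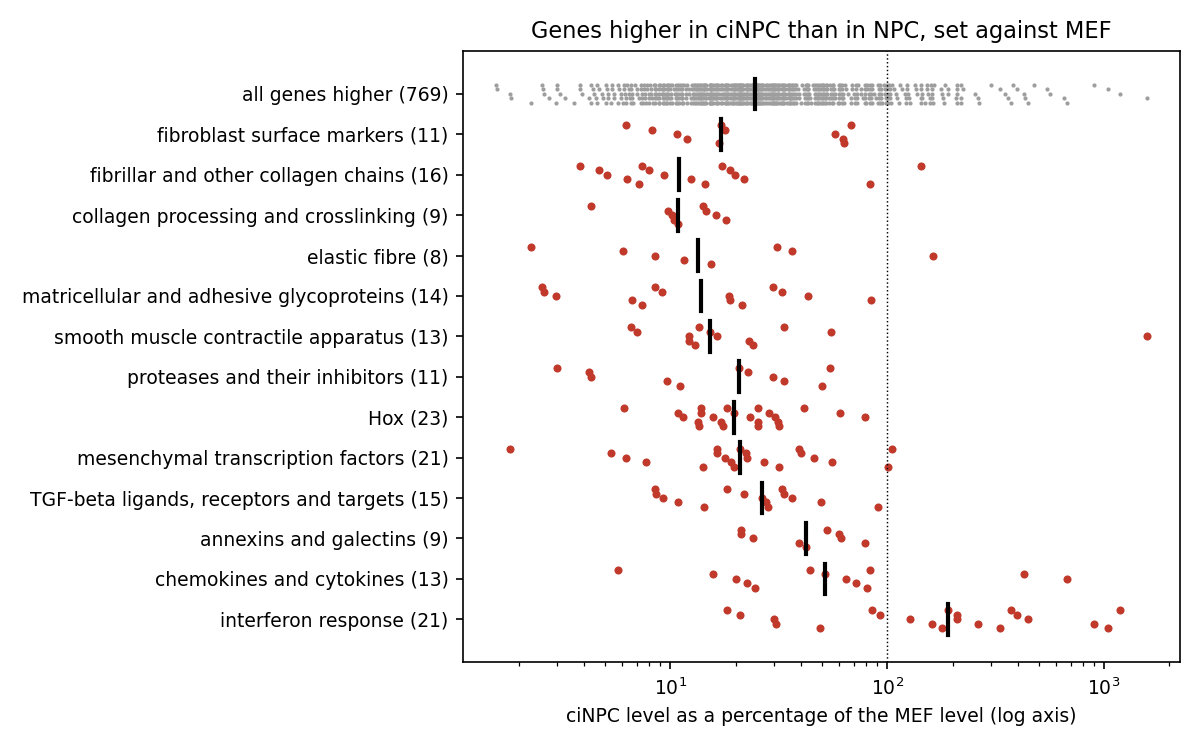
Level in ciNPC as a percentage of the MEF level (horizontal log axis) for genes higher in ciNPC than in NPC, by gene list, with the number of genes in brackets, 1 point a gene and a black bar at the median. The median is 24.6% for all 769 genes and 10.9% for collagens, and of the lists drawn the interferon genes alone have their median, 191%, past the dotted line at 100%.

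Among the 3 ciNPC arrays, the genes higher than NPC were usually brightest at passage 5. The p5 array had the highest of the 3 values in 648 of 779 genes (83.2%), against 39.5% of all genes tested, and in 398 of the 431 measured on all 4 arrays (92.3%). The shares were 80.9% of these and 35.2% of all genes with the percentile over detected probes, and 91.9% and 47.2% under quantile normalisation. The size was small: the median difference of p13 from p5 was -0.42 for these genes and 0.01 for all genes. Ccn2 differed by -0.94 between passages, Anxa1 by -0.74, Acta2 by -0.34 and Tagln by -0.06. None of the 779 higher or 14 lower genes passed the same thresholds between passages, in limma with 1 residual degree of freedom, where 102 of all 16210 genes (0.629%) passed. With 1 p5 array, passage and that array cannot be told apart.

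Markers of other cell types were counted as well. Of 14 macrophage and microglia genes tested, 4 were higher (28.6%, against 4.81% of all genes), all under background on NPC. Tyrobp was at least 4.10-fold higher. Against the lowest NPC signal well above background, Aif1 was 3.44-fold, Trem2 3.08-fold and Adgre1 2.69-fold higher. Aif1, Trem2 and Adgre1 were detected above background on 2 of the 3 ciNPC arrays each, so their folds include a dim ciNPC signal and are not strict bounds. Aif1 stood at -1.50 on p13-2, the array with the raised dim end, against -2.81 and -3.39. With normexp background correction none of the 14 was higher, and the 4 differed by 0.84 (Tyrobp), 1.18 (Aif1), 0.29 (Trem2) and 0.38 (Adgre1). Without MEF in the filter 1 of the genes was higher. The median difference of the 14 was 2.44, or 1.17 with dim genes at their bound, and 2 of the 14 lay below 0. The macrophage markers C1qa, Laptm5 and Cx3cr1 were above background on MEF and on none of the ciNPC or NPC arrays. Cx3cr1 still passed as higher without p13-2 (2.88). The summed linear level of the 14 genes, in units of the 75th percentile, was 12.8 to 15 on the ciNPC arrays, 15.1 on NPC and 60.6 on MEF. The same sum was 12.7 to 13.2, 9.19 and 34.0 for 8 endothelial genes, 37.8 to 44.4, 44.9 and 79.0 for 12 pericyte genes, and 6.82 to 7.53, 3.71 and 8.43 for 12 striated muscle genes. The part of such cells in the differences was not tested. Endothelial genes gave 1 of 8 (12.5%, against 4.81% of all genes), Flt1 at 2.39, 1.77 and 1.75, at least 80.0-fold higher on 1 probe and 1.14 on the other, while Pecam1 differed by -0.40 and was not called. Pericyte genes gave 3 of 12 (25%), Pdgfrb, desmin (Des, at least 8.64-fold) and Anpep by 3.09 (SE 0.25). Striated muscle genes gave 5 of 12, with the myogenic factor Myog at -1.02, -1.84 and -2.14, under background on NPC and MEF, at least 6.43-fold higher. That call was lost under quantile normalisation (adjusted p 0.101).

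Simple-epithelial keratins were higher too, with 3 of 7 epithelial genes called. Krt18 stood at 1.58, 1.16 and 1.24 on the ciNPC arrays, 1.04 on MEF and -4.13 on NPC, a difference from NPC of 5.46 (SE 0.23). Its partner Krt8 was at least 4.42-fold and Krt19 at least 15.4-fold higher. The call for Krt8 was lost under quantile normalisation (adjusted p 0.169) and with normexp (0.274). Krt18 stood at 122% of its MEF level. The part of any minor cell type in these values was not tested.

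Progenitor transcription factors gave shares not far from those of all genes. Of 38 tested 3 were higher (7.9% against 4.81% of all genes), 0 were lower, and 18 had a 95% interval within 2-fold, a share of 47.4% against 55.4% of all genes. Their median difference was -0.27. Olig2, a factor of ventral progenitors and the oligodendrocyte lineage (chromosome 16, 91228470 to 91228529), stood at 3.33, 3.55 and 3.52 against 4.25 on NPC, a difference of -0.78 (SE 0.15, 95% interval -1.15 to -0.42, adjusted p 0.0356), under 2-fold. Olig1 stood at 5.73, 6.15 and 6.12 against 6.56 (-0.56, SE 0.19) and Sox3 at 4.90, 5.55 and 5.35 against 5.77 (-0.50, SE 0.24). In these genes every ciNPC value lay below the NPC value and the p5 value was the lowest. Sox1 differed by -0.17 (95% interval -0.74 to 0.40) and Pax6 by -0.42 (-1.40 to 0.55). The Pax6 interval, on a dim probe, spans more than 2-fold.

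Hes5, the main Notch target of radial glia, had the largest negative difference of the factors. It stood at -0.21, 1.00 and 0.83 on the ciNPC arrays against 1.55 on NPC, a difference of -1.01 (SE 0.46, adjusted p 0.314). The p5 value lay more than 1 log2 unit below both p13 values, and without p13-1 the gene passed at -1.24. No member of 19 Notch pathway genes, Hes5 included, passed with all 3 ciNPC arrays. Few would at the shares of all genes, 4.81% higher and 0.0864% lower. Heyl, under background on NPC, was higher without p13-2. Id4 went the other way. This inhibitor of basic helix-loop-helix factors (chromosome 13, 48358668 to 48358727) stood at 0.00, -1.06 and -0.78 in ciNPC, 0.44 on MEF and -3.87 on NPC, a difference from NPC of 3.26 (SE 0.43, adjusted p 0.00556). Id1, a BMP target, was higher by 1.74 (SE 0.15) and Nfix by 1.14 (SE 0.23, its other probe 0.37). Nfix was under 2-fold without p5 (0.99), and Id4 and Nfix lost their calls under quantile normalisation (adjusted p 0.0653 and 0.0791).

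Radial glia and neural surface genes gave 0 calls of 30, where 4.81% of all genes were called higher and 0.0864% lower. At those shares few calls would be expected of 30 genes. The median was -0.41, and 21 of 30 (70%) had an interval within 2-fold, against 55.4% of all genes. Of the 30, 28 were well above background on all 4 arrays, against 12383 of all 16210 genes. The 2 shares therefore compare sets of unlike brightness, and the higher share is not a result about these genes. Fabp7, the brain fatty acid binding protein (chromosome 10, 57508039 to 57508098), stood at 7.78, 8.14 and 7.93 on the ciNPC arrays against 8.29 on NPC and -1.73 on MEF, a difference from NPC of -0.34 (95% interval -0.73 to 0.05). Nestin (Nes) stood at 6.13, 6.26 and 6.21 against 6.62 (-0.42, SE 0.12) and vimentin (Vim) at 7.56, 7.72 and 7.74 against 7.84 (-0.16, SE 0.14). The proteoglycan brevican (Bcan) differed by -0.42 (SE 0.14) and the phosphatase Ptprz1 by -0.53 (SE 0.15). Below 0 lay 28 of the 30 differences, against 10428 of 16210 for all genes, and 25 of the 30 with the percentile over detected probes. Hepacam, a glial adhesion gene, stood at -3.81 on NPC and was under background on all 3 ciNPC arrays, so its fold was not measured. Without p13-1, Ttyh1 (-1.03) and Cspg5 (-1.0) passed as lower.

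**Figure D4:**
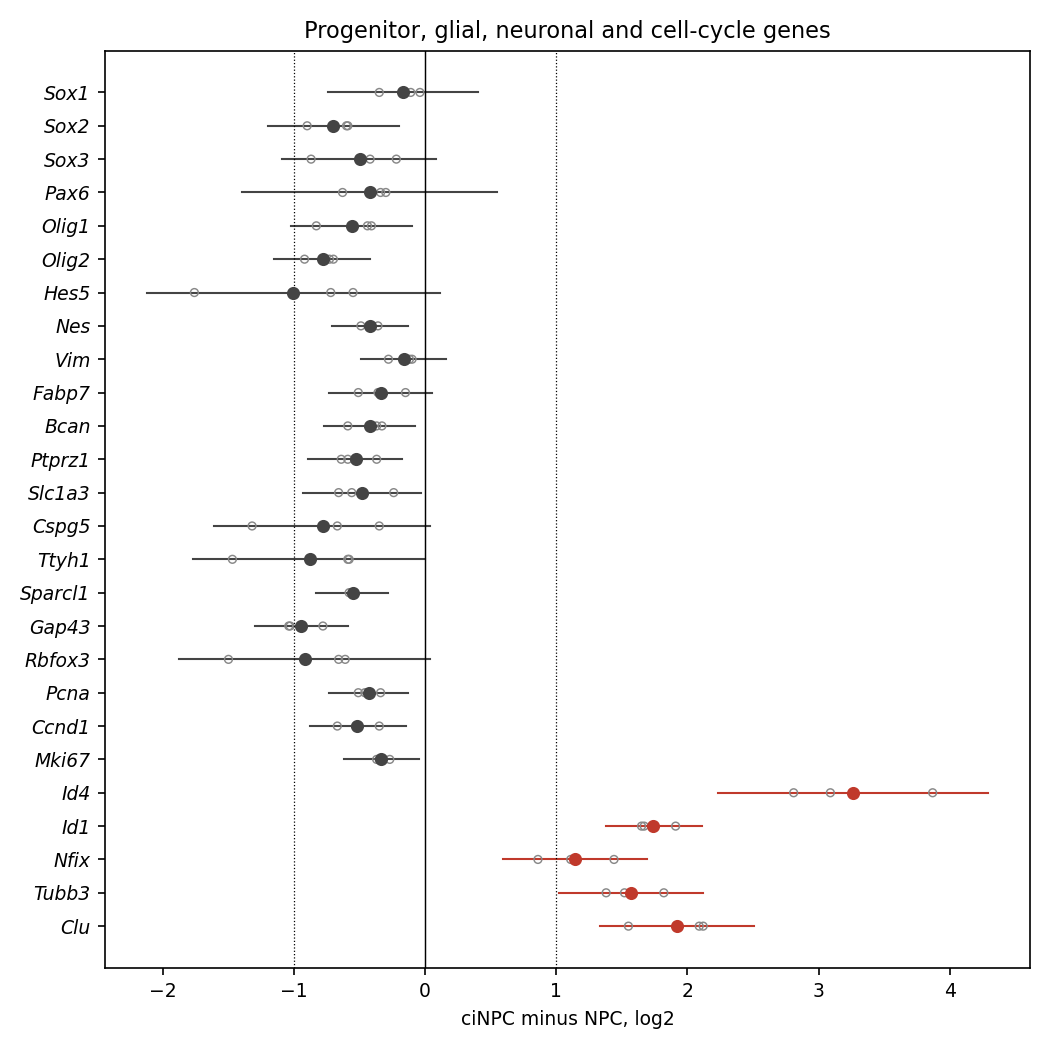
Difference of ciNPC from NPC in log2 units (horizontal axis) for 26 progenitor, glial, neuronal and cell-cycle genes: filled points are the fitted difference of 3 ciNPC arrays against 1 NPC array, bars its 95% interval, open circles each ciNPC array minus NPC, and dotted lines 2-fold. The genes in dark grey gather between -1.01 (Hes5) and -0.16 (Vim), and the 5 red genes, Id4, Id1, Nfix, Tubb3 and Clu, passed as higher.

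Genes of brain regions and of differentiated neural cells gave 9 higher calls in 5 lists, with shares of 6.25% to 15.8% a list against 4.81% of all genes, and none lower. Of 15 forebrain genes only Dlx2 was higher, by 2.79 (SE 0.41), and it was not called under quantile normalisation (adjusted p 0.178). Of 19 midbrain and hindbrain genes the 3 higher ones were the homeobox genes Irx1 (5.20, SE 0.27), Irx2 (at least 7.25-fold) and Irx3 (at least 8.81-fold), each at 21.6% to 24.6% of the MEF level. Of 14 neuron genes, Stmn2 was at least 6.78-fold higher and the tubulin Tubb3 by 1.57 (SE 0.23), at 15.1% of its MEF level. The growth cone protein Gap43 stood at 6.20, 6.19 and 6.45 against 7.23 (-0.95, 95% interval -1.30 to -0.59, adjusted p 0.0125), and passed as lower without p13-2 (-1.04). Of 16 astrocyte genes Clu was higher, by 1.92 (SE 0.25), and of 14 oligodendrocyte lineage genes Mbp (at least 6.74-fold) and Pdgfra (2.24, SE 0.25). Calls were lost for Tubb3 (adjusted p 0.0522) and Mbp (0.079) under quantile normalisation, for Irx2 (0.0673), Stmn2 (0.0535) and Mbp (0.184) with normexp, and for Tubb3 (0.0926) and Clu (0.104) without the intensity trend.

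Cell-cycle genes lay near NPC. None of 25 cell-cycle genes passed, where few would at the shares of all genes, 4.81% higher and 0.0864% lower. Of the 25 intervals 24 lay within 2-fold, against 55.4% of all genes. All 25 were well above background on all 4 arrays, against 12383 of all 16210 genes, so these shares compare sets of unlike brightness. The proliferation marker Mki67 stood at 5.82, 5.90 and 5.80 against 6.17, Pcna at 5.95, 5.83 and 5.78 against 6.29, and cyclin D1 (Ccnd1) at 6.89, 7.21 and 7.03 against 7.56. In each the ciNPC arrays lay under NPC by less than 1 log2 unit. Among 14 cell-cycle inhibitors, Cdkn1c (1.68, SE 0.25) and Gadd45b (1.67, SE 0.15) were higher, a share of 14.3% against 4.81% of all genes. Cdkn1c lost its call without the intensity trend (adjusted p 0.141). Cdkn2a, whose products arrest fibroblasts in culture, stood at 2.38, 2.06 and 2.28 against 2.72 on NPC and 4.48 on MEF, and Cdkn1a differed by -0.07 (95% interval -0.51 to 0.37).

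All 22 cholesterol synthesis genes had a difference below 0, with a median of -0.47, and none passed. At the shares of all genes called, 4.81% higher and 0.0864% lower, few calls would be expected of 22. Below 0 lay 64.3% of all genes, and 72.5% of genes with the probe above background on all 5 arrays. Nsdhl had the largest, at 0.85, 1.19 and 1.08 against 1.99 (-0.95, 95% interval -1.41 to -0.48, adjusted p 0.0415), and passed without p13-1 (-1.02). With quantile normalisation 20 of the 22 lay below 0 and the median was -0.36. Of 24 hypoxia and glycolysis genes only the prolyl hydroxylase subunit P4ha2 was higher, by 2.20 (SE 0.14), a share of 4.17% against 4.81% of all genes. P4ha2 also belongs to the collagen processing list. None of 16 housekeeping genes passed, where few calls would be expected as well, and 15 of their intervals lay within 2-fold.

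**Figure D5:**
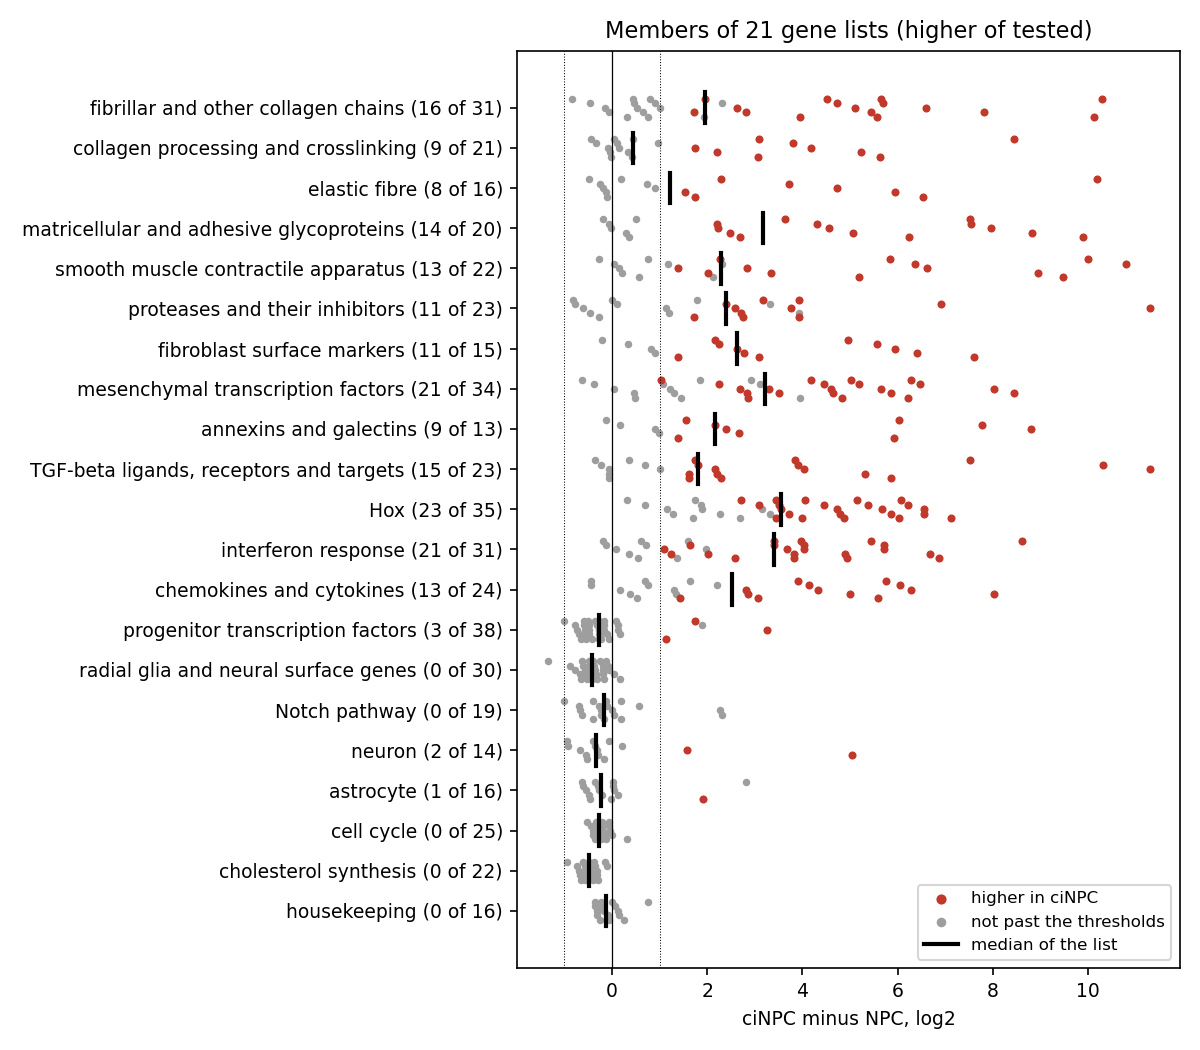
Difference of ciNPC from NPC in log2 units (horizontal axis) for the members of 21 gene lists, 1 point a gene, red where the gene was higher in ciNPC, with a black bar at the median and dotted lines at 2-fold; brackets give the number higher of the number tested. The matrix, mesenchymal and interferon lists spread to the right, with 21 of 31 interferon genes red, while cell-cycle, cholesterol and radial glia genes have no red point.

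None of the 14 genes lower in ciNPC was a member of any gene list used here. The lists together hold a small part of the 16210 genes tested, so 14 genes could easily include no member. Of the 14, only 4 were well above background on all 4 arrays, and Prmt1 and Ro60 among them were chosen after their values were seen. The potassium channel gene Kcnj4 (chromosome 15, 79314133 to 79314157) stood at -1.34, -1.21 and -1.46 against 0.05 on NPC and -1.26 on MEF, a difference from NPC of -1.38 (SE 0.26, adjusted p 0.0303). Tmem40 differed by -1.56 (SE 0.32), but its other probe gave -0.23. The arginine methyltransferase Prmt1 stood at 5.19, 5.71 and 5.41 against 6.44 (-1.01, SE 0.20), and the RNA-binding protein Ro60 at -0.13, -0.19 and -0.15 against 0.85 (-1.0, SE 0.19). Neither Kcnj4, Tmem40, Prmt1 nor Ro60 passed under quantile normalisation.

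The other lower genes were dim in ciNPC. Dmrtc1a stood at 0.44 on NPC and was under background on all ciNPC arrays, at least 12.3-fold lower, Serpina5 was at least 11-fold and Trex2 at least 9.10-fold lower. Pxk and Slc35a5 were each above background on 1 of the 3 ciNPC arrays. Both lost their calls under quantile normalisation (adjusted p 0.169 for Pxk and 0.683 for Slc35a5), and Slc35a5 also with no filter on dim probes (0.0748) and with the mean of its probes (0.222). The count of lower genes changed with each ciNPC array left out: it was 22 without p5, 43 without p13-1 and 76 without p13-2.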

How the data were processed

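Total RNA was hybridised to 5 one-colour Agilent mouse arrays, and 4 of them enter the comparison. The deposited scanner files, written by Agilent Feature Extraction 10.7.1.1 according to the submitters' processing notes, hold the processed intensity of each spot, background-subtracted per the file headers, with positions on mm9. The deposited value table holds log2 values that correlated with the log2 processed signal of the same array at r = 0.995 to 0.999 over 55674 probes; every column has a median of 5.64, so its scale is log2 and its direction known, while its centring step is not given in the sources used here.

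Control spots and outlier spots were left out, log2(processed signal) was reduced by the array's 75th percentile, and spots of a probe were averaged. Of 55681 probes 29676 matched a RefSeq gene (GRCm38.p6), 26582 by accession and 3094 by symbol or synonym, and 26005 did not, giving 21983 genes, each read from its brightest probe. Genes entered the test where 1 or more of 4 groups (MEF, ciNPC p5, ciNPC p13, NPC) had the probe well above background throughout. limma 3.58.1 in R 4.3.3 was fitted to MEF, ciNPC and NPC (lmFit, eBayes with intensity trend, Benjamini-Hochberg adjustment over all 16210 genes), with 2 residual degrees of freedom. The passage comparison was a separate fit. All adjusted p-values here come from limma. The scripts were tested on simulated data with changes of known size. There, 23.9% of changes of 1.5 log2 units were called, 52.2% of 3 units and 71.2% of 5 units. A gene that was not called may therefore still differ.

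A gene under background on all arrays of the dimmer group has a lower-bound fold, against the higher of its own signal and the lowest signal well above background there. In a gene higher in ciNPC, any dim ciNPC signal was taken as it stood. Genes were named by rule: the 20 highest and up to 20 lowest calls, the 12 highest measured on all 4 arrays, per list up to 8 called members and up to 6 others with the largest differences, and fixed markers; predicted genes were left out. Some items that the rule names are not reported here. The comparison, the members of the 39 gene lists and the rule were chosen with earlier results of these data known, so list counts are descriptions and no list was given its own test. Python 3.11.15 and matplotlib 3.10.9 were used for tables and plots. Alternatives covered scaling, background correction, filter, probe choice, variance model, the MEF array and each ciNPC array.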

Additional observations from a re-analysis of the deposited data

Results flagged for a closer look

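Probes that matched no RefSeq gene took no part in the comparison by gene, yet some differed in the same way. Of 13844 such probes tested with the same limma fit and thresholds, 89 (0.643%) were higher in ciNPC than in NPC and 1 was lower. Of the 89, 53 are named on the array only by a genomic interval, and 42 were well above background on NPC. The 2 probes with the highest fitted difference were under background on NPC, so their rank does not order the folds. One probe covers an interval on chromosome 6, 34548561 to 34612216 (mm9), and stood at 1.01, 0.636 and 0.387 on the ciNPC arrays, at 3.37 on MEF and under background on NPC. Another lies on chromosome 12, 110894095 to 110899517, and stood at 0.611, 0.328 and 0.471 on the ciNPC arrays, 2.95 on MEF and under background on NPC. In both intervals all 3 ciNPC values lay between MEF and NPC. Groups of 3 arrays are too small for the test of single outlying arrays.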

How the results depend on the processing

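The count of genes higher in ciNPC, 779, ranged from 522 to 854 under 9 alternatives that kept all ciNPC arrays. It was 430 when the probe had to be above background on all 5 arrays. That filter removes genes under background on any array, MEF included, and left 22 of the 38 progenitor factors. Leaving out 1 ciNPC array gave 895 to 1030. The count of lower genes, 14, was 24 under quantile normalisation, 41 with normexp background correction, 24 in the submitters' value table, 4 with the probe above background on all 5 arrays and 25 without the intensity trend. Leaving out 1 ciNPC array gave 22 to 76 lower genes. The cause of these changes was not tested. The split of higher against lower calls stayed one-sided in every setting run.

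Of 180 genes named, 133 kept their direction and their side of the threshold under all 13 alternatives, where they could be tested. A difference near 0 changed sign in 3 of them, none of which was called: Sox1 was 0.18 with the mean of its probes. Cdkn1a was 0.06 with the percentile over detected probes, 0.08 under quantile normalisation, 0.07 with normexp, 0.08 in the value table and -0.18 to 0.04 with 1 ciNPC array left out. Tnc was 0.11, 0.13, 0.07 and 0.13 under the same 4 and -0.12 to 0.13 with 1 ciNPC array left out. Calls were lost most often under normexp (22 genes), quantile normalisation (21), the value table (21) and without the intensity trend (16). Requiring all 5 arrays above background left 0 higher Hox genes, 12 interferon genes, 9 collagens, 7 contractile genes and 7 mesenchymal factors.

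No paired analysis was possible because NPC has 1 array and shares fewer than 2 replicate numbers with ciNPC. With 1 NPC array, its own spread is unknown, and a signal under background bounds a difference without measuring it.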
